A study of Mus musculus with 3 samples.

Results

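The imprinted Dlk1-Dio3 region of mouse chromosome 12 is one of the largest miRNA clusters in mammals, and 38 of its mature miRNAs, chosen by name, were followed here in macrophage exosomes. All 38 names were among the 1915 mature miRNAs of the tables. Exosomes are small vesicles that cells release. These came from bone-marrow-derived macrophages of adult wild type C57BL/6 mice, grown from leg-bone marrow with the growth factor M-CSF for 24 h and then kept for 72 h in medium with serum depleted of exosomes. The pellet from ultracentrifugation was used, so RNA that pelleted with vesicles is included and fetal bovine serum was part of the medium. The design has 1 group of 3 libraries, called libraries 1 to 3, and no treatment, other genotype or library of the parent cells. Whether they are separate cultures or animals is not stated, so every SD and p-value speaks only of these 3 libraries. Part or all of the variation among them may be technical. Library 1 stood apart. MiR-21a-5p, the most abundant of the macrophage and myeloid markers listed here, was at 37316 CPM there (counts per 1000000 miRNA counts). In libraries 2 and 3 it was at 305278 and 261488 CPM. Not every listed marker was far lower in library 1. MiR-146a-5p was at 33400.9, 35012.3 and 36542.5 CPM in libraries 1 to 3.

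In this region the miRNAs and other noncoding RNAs are transcribed from the chromosome inherited from the mother, and the protein genes Dlk1, Rtl1 and Dio3 from the one inherited from the father. A first group of hairpins lies between the noncoding RNA gene Meg3 and the introns of another, Rian, and several of these are antisense to Rtl1, whose transcript they can silence. A second, longer row runs from miR-379 to miR-410 and ends in the noncoding gene Mirg. Loss of this row disturbs the metabolic adaptation of newborn mice. Both groups are known for high levels in embryo, placenta and brain.

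The sequences that carried most of the counts are shown with the seed, the stretch that pairs with target transcripts (bases 2 to 8), in capitals. They are the 6 members with a summed count of at least 30, 5′ to 3′, from RefSeq (build GRCm38.p6), all on the plus strand and named with the mouse prefix mmu.
mmu-miR-369-3p (chr12:109743466-109743486): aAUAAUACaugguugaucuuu
mmu-miR-127-3p (chr12:109592888-109592909): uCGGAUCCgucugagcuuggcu
mmu-miR-379-5p (chr12:109709065-109709085): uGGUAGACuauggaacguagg
mmu-miR-495-3p (chr12:109718795-109718816): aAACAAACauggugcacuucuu
mmu-miR-381-3p (chr12:109726870-109726891): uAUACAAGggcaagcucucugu
mmu-miR-409-3p (chr12:109743204-109743225): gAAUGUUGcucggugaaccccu
Beside them stand 2 members that lie in the same row and differ from one of these by few bases, chosen for that likeness after the data were seen.
mmu-miR-543-3p (chr12:109717304-109717325): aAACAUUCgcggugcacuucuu
mmu-miR-300-3p (chr12:109724363-109724384): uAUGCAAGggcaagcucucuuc
A mature sequence was found for 35 of the 38 members, and these 35 had 35 different seeds. None for miR-376c-3p, miR-485-5p and miR-487b-3p is shown. The members are therefore no seed family, even where the rest of the sequence is alike. MiR-381-3p and miR-300-3p differ by 3 single-base edits and miR-495-3p and miR-543-3p by 4. Outside the member list, 6 members shared a seed with another miRNA in the tables, where 1623 of 1915 had a sequence to compare. Among the 6, miR-329-3p, at 0 counts, has the seed of miR-362-3p, which had a summed count of 780.

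The members were present at a low level. Their counts summed to 407, 185 and 228 in libraries 1, 2 and 3, out of 3008995, 2489984 and 3208617 counts assigned to miRNAs. Scaled to those totals, the sum was 135, 74.3 and 71.1 CPM, with 95% Wilson intervals of 123 to 149, 64.3 to 85.8 and 62.4 to 80.9. The mean was 93.5 ± 36.2 CPM (SD, n = 3), or 0.00935% of miRNA counts, and 72.7 CPM without library 1. In a bulk exosome preparation, few vesicles that carry these miRNAs and little of them per vesicle cannot be told apart. A count of 0 allows up to 3 counts, which is 0.997, 1.20 and 0.935 CPM in libraries 1 to 3. These intervals and limits cover counting error only, since PCR copies of a molecule cannot be told from separate molecules.

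Of the 38 members, 22 had a count in at least 1 library (57.9%), beside 886 of all 1915 miRNAs (46.3%). In every library 13 members (34.2%) had a count, beside 505 of all miRNAs (26.4%). At the upper end the order turned: at least 10 counts in every library were reached by 2 members (5.26%), beside 273 of all miRNAs (14.3%). No member reached a mean of 100 CPM, beside 134 of all miRNAs (7.00%). The median summed count of detected miRNAs was 12 for the members and 12.5 for all. The 16 members with no count in any library were miR-337-5p, miR-540-3p, miR-665-3p, miR-434-3p, miR-136-5p, miR-341-3p, miR-380-3p, miR-758-3p, miR-329-3p, miR-667-3p, miR-376a-3p, miR-487b-3p, miR-539-5p, miR-668-3p, miR-154-5p and miR-377-3p. At this depth such a miRNA was not detectable, which does not show that it was absent.

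MiR-369-3p, which in human cells can bind the AU-rich element of the tumour necrosis factor transcript, had the highest mean of the members. It had 136, 90 and 78 counts in libraries 1, 2 and 3. This is 45.2, 36.1 and 24.3 CPM, averaging 35.2 ± 10.5 CPM (SD, n = 3). It ranked 171 among all miRNAs by mean CPM. MiR-127-3p, the best known of the miRNAs antisense to Rtl1, had 148, 38 and 36 counts. This is 49.2, 15.3 and 11.2 CPM, averaging 25.2 ± 20.9 CPM (SD, n = 3), at rank 192. Library 1 was far above the others for miR-127-3p, and without it the mean was 13.2 CPM. Their ranges over the libraries overlapped.

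The ratio of these leading members within a library does not depend on how libraries are scaled. MiR-127-3p to miR-369-3p stood at 1.09 in library 1 (exact 95% interval 0.856 to 1.38), at 0.422 in library 2 (0.281 to 0.623) and at 0.462 in library 3 (0.302 to 0.693). The interval of library 1 did not overlap those of the others, which overlapped each other. With the 3 libraries pooled the ratio was 0.730, which lies outside the interval of every library and so describes none of them. MiR-369-3p was higher in libraries 2 and 3 by more than counting error, and in library 1 the pair could not be ordered. Together the pair held 69.8%, 69.2% and 50.0% of member counts in libraries 1, 2 and 3. The 6 members with at least 30 counts held 86.2%, 86.5% and 79.8%.

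**Figure D1:**
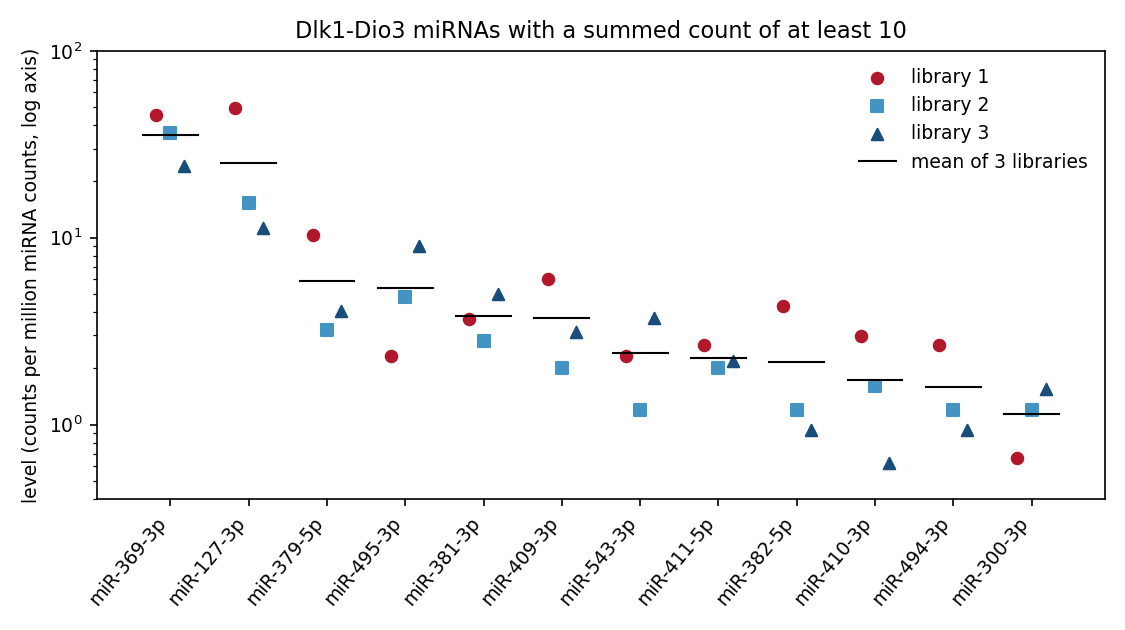
Level of each of the 12 members with a summed count of at least 10, in counts per 1000000 miRNA counts on a log axis, with 1 point per library and a bar at the mean of the 3 libraries. MiR-369-3p and miR-127-3p stand above the rest, and miR-495-3p is lowest in library 1, where miR-379-5p is highest.

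The next members were lower, and the range of miR-379-5p lay below those of both leading members. MiR-379-5p, the first of the long row, had 31, 8 and 13 counts in libraries 1, 2 and 3, which is 10.3, 3.21 and 4.05 CPM and averages 5.86 ± 3.87 CPM (SD, n = 3). Without library 1 that mean was 3.63 CPM. MiR-495-3p had 7, 12 and 29 counts, which is 2.33, 4.82 and 9.04 CPM and averages 5.39 ± 3.39 CPM (SD, n = 3), and 3.57 CPM without library 3. Library 1 was thus highest for miR-379-5p and lowest for miR-495-3p, while both were higher in library 3 than in library 2. The ratio of miR-379-5p to miR-495-3p was 4.43 in library 1 (exact 95% interval 1.91 to 11.9), 0.667 in library 2 (0.236 to 1.77) and 0.448 in library 3 (0.214 to 0.890).

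MiR-381-3p had 11, 7 and 16 counts and miR-409-3p 18, 5 and 10, with means of 3.82 ± 1.10 and 3.70 ± 2.05 CPM (SD, n = 3 each). From miR-379-5p downward the range of each of the 12 members over the libraries overlapped that of the next in rank, so the order of neighbours is not settled. Within a library neighbours could still differ, as miR-379-5p and miR-495-3p did in libraries 1 and 3, in opposite directions. MiR-543-3p had 7, 3 and 12 counts, miR-411-5p 8, 5 and 7, and miR-382-5p 13, 3 and 3. MiR-410-3p, the last of the row, had 9, 4 and 2 counts, miR-494-3p 8, 3 and 3, and miR-300-3p 2, 3 and 5. Their means ran from 2.42 CPM for miR-543-3p down to 1.14 CPM for miR-300-3p, with miR-382-5p at 2.15 CPM, or 1.07 without library 1, and miR-410-3p at 1.74 CPM, or 1.11 without library 1. MiR-411-5p was at 2.28 ± 0.337 CPM (SD, n = 3).

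The other 10 detected members had summed counts of 1 to 9. MiR-323-3p was the only one of them with a count in every library, at 3, 2 and 4. MiR-433-3p, antisense to Rtl1 like miR-127-3p, had 3, 0 and 3 counts, miR-370-3p 1, 0 and 2, and miR-485-5p 0, 0 and 3. MiR-134-5p, which limits the growth of dendritic spines in neurons, had 1 count in all, as had miR-431-5p, miR-299a-5p, miR-376b-3p, miR-376c-3p and miR-541-5p. The miR-376 family, whose precursors are edited from A to I in brain, thus had 2 counts over its 3 members.

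**Figure D2:**
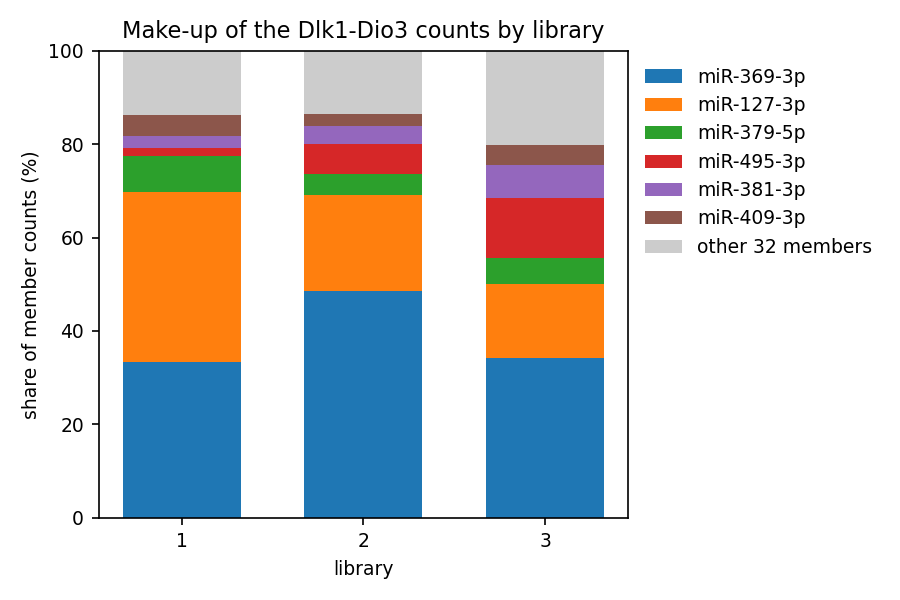
Share of the member counts taken by each of the 6 members with a summed count of at least 30 and by the other 32, as stacked bars in percent for each library. MiR-127-3p goes from 36.4% in library 1 to 20.5% and 15.8% in libraries 2 and 3, and miR-495-3p from 1.72% to 6.49% and 12.7%.

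Counts were spread unevenly along the region. In the GENCODE annotation of GRCm38 (mm10, the build named in the submitters' processing notes), the region runs from Dlk1 at 109452823 to the end of Dio3 at 110281097 on chromosome 12. The hairpins of the members lie between 109585789 and 109743795, all on the plus strand. Of the 10 members of the first group, which begins past Meg3 and reaches into Rian, 4 had a count, and 222 of their 232 counts were miR-127-3p. Its hairpin overlaps an exon of Rtl1 on the opposite strand, as do those of miR-431, miR-433, miR-434 and miR-136. In that stretch of 4.9 kb the summed counts went from 222 for miR-127-3p to 6 for miR-433-3p and 1 for miR-431-5p, with miR-434-3p and miR-136-5p at 0. MiR-337-5p, miR-540-3p and miR-665-3p, which lie between Meg3 and Rtl1, were at 0, and of the members in introns of Rian miR-341-3p was at 0 and miR-370-3p had 3 counts.

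The 28 members from miR-379 to miR-410 held 588 of the 820 member counts (71.7%), and 18 of them had a count. In the first 18 of these, which lie before the annotated start of Mirg, the counts were 212, at 26.3, 17.3 and 28.05 CPM in libraries 1, 2 and 3. In the 10 members inside Mirg they were 376, at 58.5, 41.4 and 30.2 CPM, and 304 of these were miR-369-3p. The miR-369 hairpin overlaps an exon of Mirg and the miR-409 hairpin an intron, and both lie within 1 kb of miR-410. The ratio of miR-369-3p to miR-409-3p was 9.21 over the 3 libraries together (exact 95% interval 6.42 to 13.6), and that of miR-369-3p to miR-410-3p was 20.3 (12.1 to 36.7). Hairpins that are close neighbours in the row thus differed by far more than counting error. Ligation and PCR efficiency differ between sequences, and their part in these differences was not tested.

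**Figure D3:**
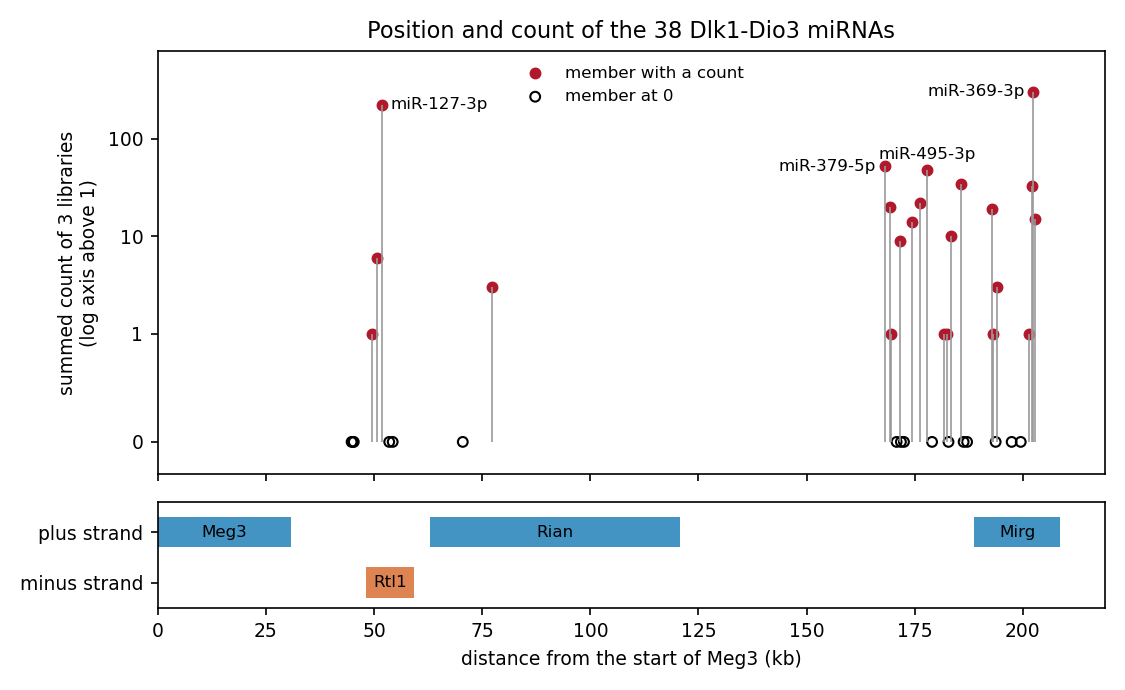
Summed count of each of the 38 members over the 3 libraries, on an axis that is linear up to 1 and logarithmic above, against the distance of its hairpin from the start of Meg3 in kb, with host genes drawn below by strand. Filled points are members with a count, open points the 16 at 0, and the tallest points, miR-127-3p and miR-369-3p, lie at 51.8 and 202.4 kb.

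The opposite arms of the hairpins and further hairpins of the region add little. Of 37 opposite arms in the tables and placed by RefSeq, 7 had a count, 46 in all. Of 40 mature miRNAs from 22 further hairpins, 9 had a count, 54 in all. With them the region summed to 105 CPM in place of 93.5. The highest was miR-493-5p, 39.2 kb from the start of Meg3, with 16, 9 and 7 counts in libraries 1, 2 and 3, or 3.70 ± 1.57 CPM (SD, n = 3). Next were miR-382-3p with 8, 5 and 7 counts and miR-299a-3p with 4, 1 and 8. The remaining 13 detected arms had summed counts of 1 to 8. One of these, miR-299b-3p, with 2, 1 and 3 counts, is annotated on the minus strand, but its 18 bases are the first 18 of the 22 of miR-299a-3p, so a read of no more than these 18 bases matches both names.
mmu-miR-299a-3p (chr12:109710676-109710697, plus strand): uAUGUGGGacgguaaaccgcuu
mmu-miR-299b-3p (chr12:109710645-109710662, minus strand): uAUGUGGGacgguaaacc

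Which arm of a hairpin is kept was compared on counts of both arms from the same libraries. Unless a library is named, ratios and shares of the arms are of counts summed over the 3 libraries. Their intervals leave out differences between libraries. Both arms were in the tables for all 38 member hairpins, and 13 hairpins had at least 10 counts over both arms. The listed arm was the higher one in 11 of these 13. The exceptions were miR-299a, with 1 count of the 5p arm and 13 of the 3p arm, and miR-382. The 3p arm was higher in 11 and the 5p arm in 2, miR-379 and miR-411, a split that was not counted over all hairpins. In 7 hairpins the opposite arm had no count, and in 4 it had 1 to 3.

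The arms were tested with edgeR's quasi-likelihood test over all 192 precursors with at least 30 counts, with the library as a term and Benjamini-Hochberg adjustment. It called 79.2% of all precursors, 39.1% with the 3p arm higher and 40.1% with the 5p arm higher. Of the 7 member hairpins tested 5 were called (71.4%), a share near that of all precursors. The calls were 4 toward 3p and 1 toward 5p, where those of all precursors were about even. With 7 hairpins nothing is read from this split. MiR-369 had 304 counts of the 3p arm against 1 of the 5p arm, a ratio of 304 (exact 95% interval 54.2 to 12046), with an edgeR adjusted p of 5.78e-07. MiR-127 had 222 against 2, a ratio of 111 (30.4 to 922), with an edgeR adjusted p of 2.12e-05.

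In 3 of the called hairpins the opposite arm had no count, so the ratio is a bound against 3 counts over the 3 libraries together. The 5p arm of miR-379 was at least 17.3-fold higher than its 3p arm (edgeR adjusted p = 0.000242). The 3p arm was at least 16.0-fold higher for miR-495 and 11.3-fold for miR-381 (edgeR adjusted p = 0.000324 and 0.00071). Over the alternatives that could be run, these 5 calls held wherever the hairpin was tested, with adjusted p from 2.56e-09 to 0.0443.

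The other 2 hairpins tested, miR-382 and miR-409, were not called. The arms of miR-382 are shown because neither prevailed.
mmu-miR-382-5p (chr12:109733781-109733802): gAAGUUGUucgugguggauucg
mmu-miR-382-3p (chr12:109733819-109733840): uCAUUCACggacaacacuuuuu
MiR-382 had 13, 3 and 3 counts of the 5p arm and 8, 5 and 7 of the 3p arm, and the 3p arm took 51.3% of the total (exact 95% interval 34.8 to 67.6). By library the 5p arm was above the 3p arm in library 1 and below it in libraries 2 and 3, with intervals of the ratio that overlapped. The edgeR adjusted p was 0.808, and 0.812 to 0.955 over its alternatives. MiR-409 had 1, 5 and 2 counts of the 5p arm beside 18, 5 and 10 of the 3p arm, so that library 2 had equal counts of both. Its 3p arm took 80.5% of the summed counts (65.1 to 91.2), an interval that leaves out this difference between libraries. The edgeR adjusted p for miR-409 was 0.145, and 0.11 to 0.278 over its alternatives.

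**Figure D4:**
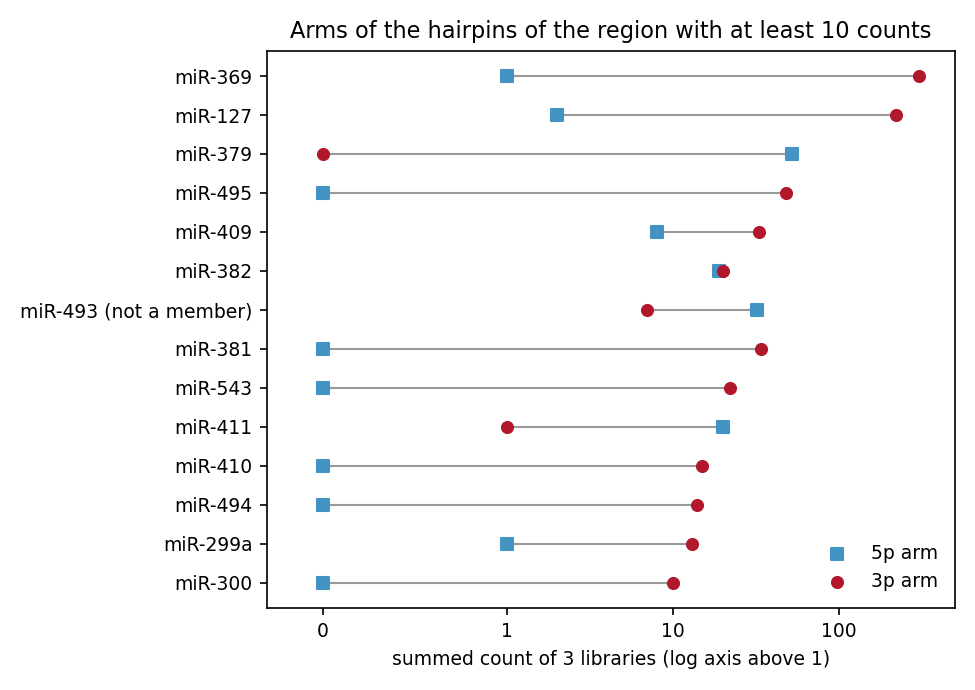
Summed counts of the 5p (squares) and 3p (circles) arms over the 3 libraries, on an axis that is linear up to 1 and logarithmic above, for the 13 member hairpins with at least 10 counts over both arms and for miR-493. MiR-369 and miR-127 have 304 and 222 counts of the 3p arm against 1 and 2 of the 5p arm, while the arms of miR-382 lie side by side at 19 and 20.

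Whether the libraries differed in the members by more than counting error was asked with a chi-square test of the 3 counts of each miRNA against the miRNA totals. After Benjamini-Hochberg adjustment it called 90.1% of the 353 miRNAs tested, those that reached 30 counts in sum. Of the 6 members tested 5 were called (83.3%), near that background. With TMM factors 3 of the 6 were called (50%), beside 89.5% of all miRNAs, and with DESeq2 size factors likewise 3, beside 89%. With 6 members nothing is read from these shares. The test compares these libraries and not conditions. The adjusted chi-square p was 1.43e-22 for miR-127-3p, 7.38e-05 for miR-369-3p, 0.000835 for miR-379-5p, 0.00183 for miR-495-3p and 0.0479 for miR-409-3p. MiR-381-3p was not called, at 0.423.

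Most of these calls rested on how the libraries were scaled or on 1 library. With miRNA totals the log2 ratio of library 1 to libraries 2 and 3 was 0.86 and 0.93 for the sum of the members. It was 1.13 and 0.83 with the authors' RPM values, but 0.25 and 0.07 with TMM factors and 0.21 and 0.05 with DESeq2 size factors. For the sum without miR-127-3p it was 0.544 and 0.525 with miRNA totals. That sum was lower in library 1 with TMM factors, at -0.07 and -0.338, and with DESeq2 size factors, at -0.108 and -0.355. TMM factors, which assume that most miRNAs do not differ, moved every log2 ratio of library 1 to libraries 2 and 3 by -0.61 and -0.86. Of the 12 members with at least 10 counts, 10 were higher in library 1 than in library 2 and 8 higher than in library 3 with miRNA totals, and 7 and 7 with either set of factors. Over 451 miRNAs with the same minimum and a count in every library, the median log2 ratio of library 1 was 0.76 to library 2 and 1.00 to library 3, beside 0.92 and 0.92 for the 12 members. MiRNAs in general were thus also higher in library 1 on this scale.

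Against both other libraries, 4 of the 6 members tested kept their direction under all 4 scalings: miR-127-3p, miR-379-5p and miR-409-3p were higher in library 1 and miR-495-3p lower. MiR-127-3p was higher in library 1 than in libraries 2 and 3 by 1.69 and 2.13 with miRNA totals and by 1.07 and 1.27 with TMM factors. MiR-495-3p was lower there, at -1.05 and -1.96 with miRNA totals and -1.67 and -2.82 with TMM factors. MiR-127-3p and miR-495-3p were called with miRNA totals, TMM factors and DESeq2 size factors. Without library 1 neither was, at adjusted chi-square p of 0.241 and 0.0924, where the alternatives as a whole ran from 1.18e-22 to 0.241 and from 5.26e-07 to 0.0924.

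MiR-369-3p changed sign against library 2, with a log2 ratio of 0.32 by miRNA totals and -0.29 by TMM factors, where its adjusted chi-square p was 0.255 (1.27e-05 to 0.255 over the alternatives). It was 0.11 without library 3. MiR-379-5p was higher in library 1 than in libraries 2 and 3 by 1.68 and 1.35 with miRNA totals and by 1.07 and 0.48 with TMM factors, where its adjusted chi-square p was 0.148 (0.000948 to 0.172 over the alternatives). MiR-409-3p was higher there by 1.58 and 0.94 with miRNA totals and by 0.96 and 0.08 with TMM factors, where its adjusted chi-square p was 0.409 (0.0517 to 0.438 over the alternatives). MiR-381-3p gained one, at 0.0425 (0.041 to 0.485 over the alternatives), with log2 ratios of library 1 to libraries 2 and 3 of -0.24 and -1.31.

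**Figure D5:**
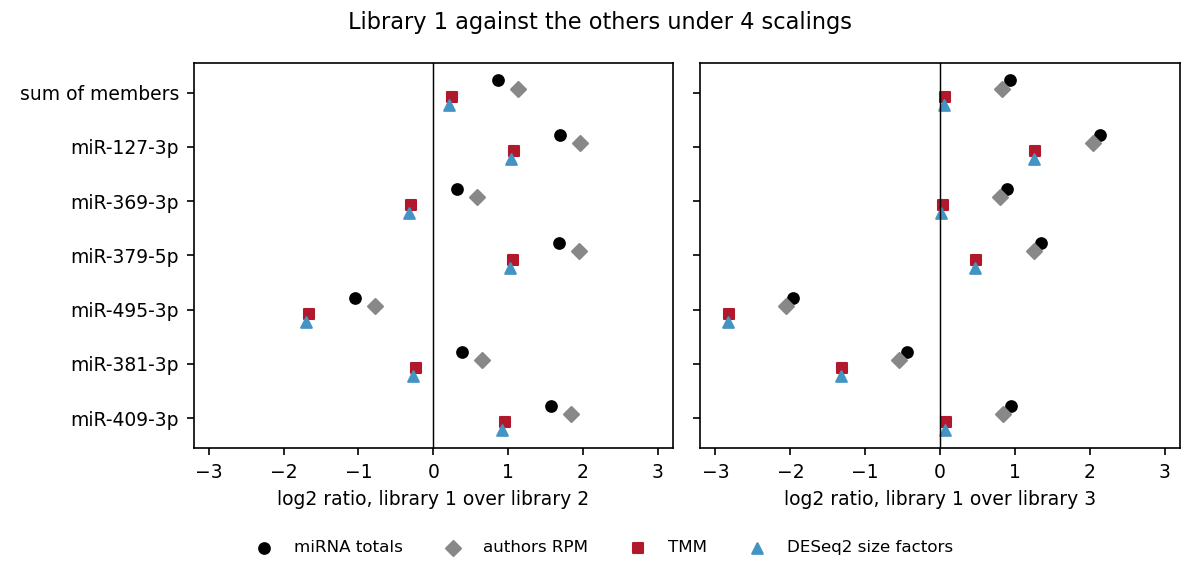
Log2 ratio of library 1 to library 2 (left) and to library 3 (right) for the sum of the members and for the 6 members with at least 30 counts, under 4 ways to scale the libraries. MiR-127-3p lies to the right of 0 and miR-495-3p to the left under all 4, while miR-369-3p against library 2 lies on either side.

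The low level of the members was set beside marker miRNAs of the labelled cells and of others. All 6 macrophage and myeloid markers had counts in every library and summed to 71162, 344914 and 300101 CPM in libraries 1, 2 and 3. Most of it was miR-21a-5p and miR-146a-5p, so the sum says little about the other markers of the list. In library 1 miR-155-5p, miR-142a-3p and miR-223-3p were at 74.8, 42.9 and 35.6 CPM and miR-142a-5p at 292 CPM. MiR-155-5p had 225, 5947 and 2660 counts in libraries 1, 2 and 3. MiR-142a-3p, which marks blood cells of all lineages, had 129, 3396 and 2628 counts. In library 1 it thus stood level with the leading members, since the ratio of miR-127-3p to miR-142a-3p was 1.15 (exact 95% interval 0.900 to 1.46). In libraries 2 and 3 that ratio was 0.0112 (0.00790 to 0.0154) and 0.0137 (0.00957 to 0.0190). MiR-223-3p, a myeloid miRNA highest in neutrophils, had 107, 131 and 106 counts. The ratio of miR-369-3p to miR-223-3p was 1.27 in library 1 (exact 95% interval 0.979 to 1.65), 0.687 in library 2 (0.519 to 0.905) and 0.736 in library 3 (0.542 to 0.995). MiR-369-3p was thus below miR-223-3p in libraries 2 and 3 by more than counting error, and in library 1 the interval included 1.

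Markers of other cell types ranged from below the members to well above them. Of the 5 stromal markers 4 had a count in every library, and they summed to 263, 155 and 154 CPM, highest in library 1. Most of this was miR-199a-3p, with 672, 312 and 367 counts. The 3 erythroid markers, of which 2 had a count in every library, summed to 89.7, 27.7 and 15.6 CPM, also highest in library 1. On this scale miRNAs in general were higher there too, with a median log2 ratio of 0.76 to library 2 and 1.00 to library 3 over 451 miRNAs. The stromal sum was higher by about that median or less, and the erythroid sum by more than it. The 2 endothelial markers, both counted in every library, summed to 25.9, 44.6 and 25.2 CPM. Of the 5 neuron markers 2 had a count in every library, and they summed to 13.0, 11.6 and 14.6 CPM, with the defining miR-124-3p and miR-137-3p at 0. Of the 6 markers of pluripotent stem cells 5 were at 0 and miR-294-3p had 1, 3 and 3 counts. The 3 muscle markers summed to 2.66, 0 and 2.18 CPM, with none counted in every library. The hepatocyte miR-122-5p was at 322, 548 and 1500 CPM, above the sum of the members in every library. The part of such cells, or of serum, in the member counts was not tested.

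The base composition of the members showed no order by count. Median GC content was 46.5% in the 12 members with at least 10 counts, 53.5% in the 8 with 1 to 9 counts and a sequence, and 47.4% in the 15 at 0 with a sequence. Over all miRNAs with a sequence it was 50.0% with at least 10 counts and 54.2% at 0. The 12 members with at least 10 counts ran from 23.8% GC in miR-369-3p to 59.1% in miR-127-3p, the leading pair. The motif GGAG, described in miRNAs sorted into vesicles, was searched on the miRNA strand only and was found in 0 of the 20 members with a count and a sequence and in 3 of the 15 at 0. Of all miRNAs with a sequence and at least 10 counts 9.48% held it, and of those with a sequence at 0 16.7%. These are matches of letters in few sequences and are given as a description.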

How the data were processed

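Small RNA libraries were made by adapter ligation and PCR and read as single 50-base reads, per the labels' protocols. The submitters' processing notes name bcl2fastq, BWA and the mm10 build. Trimming, mismatch limits and the handling of reads with several matches are not given in the sources used here. In every library, the deposited table pairs the authors' read count of a mature miRNA with an RPM value. As worked out from the deposited columns, RPM is per 1000000 of 14047692, 13995845 and 14002577 reads in libraries 1 to 3, of which miRNA counts are 21.4%, 17.8% and 22.9%, so counts were scaled to miRNA totals here.

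Members were matched by name, and positions were taken from GENCODE and RefSeq for GRCm38. The members and lists were chosen with earlier results of these data known. By the rule for named miRNAs, values per library are given from a summed count of 10 and sequences from 30. The chi-square and edgeR tests used a summed count of at least 30, an adjusted p below 0.05, R 4.3.3, edgeR 4.0.16 and DESeq2 1.42.0. Both were also run on simulated data. For the chi-square test these data held only counting error and set changes, unlike these libraries. For the arm test the spread between libraries was set in advance and not fitted to these libraries. Nothing is concluded from either run. Shares carry Wilson and ratios exact binomial intervals (SciPy 1.17.1). Alternatives were other filters, TMM and DESeq2 scaling, RPM, no library term and leaving out each library. Sums without miR-127-3p or miR-369-3p were chosen after seeing the data.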

Additional observations from a re-analysis of the deposited data

How the results depend on the processing

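The summed level of the members was 93.5 CPM, 89.6 with TMM factors, 88.3 with DESeq2 size factors, 68.3 without miR-127-3p, 58.3 without miR-369-3p and 72.7 to 105 when 1 library was left out. By the authors' RPM, whose denominators hold more than miRNAs, it was 19.5 RPM. Of the 13 members with a count in every library, 10 had at least 3 and 2 at least 10 in each, and leaving out a library gave 13 to 15. The chi-square test called 5 of 6 members tested (90.1% of all miRNAs). It called 5 of 10 with a minimum of 15 counts (83.2%) and 2 of 2 with a minimum of 60 (93.5%). It called 3 of 6 with TMM factors (89.5%) and 3 of 6 with DESeq2 size factors (89%). Without libraries 1, 2 and 3 in turn it called 1 of 3, 4 of 4 and 2 of 3. The shares of all miRNAs were then 61.5%, 86.9% and 87.5%. Over all miRNAs it called 318, and 177 to 284 when a library was left out, the lowest without library 1. The arm test called 5 of 7 member hairpins tested (79.2% of all precursors). It called 8 of 10 with a minimum of 15 counts (75.6%) and 2 of 2 with a minimum of 60 (80.3%). Leaving out libraries 1, 2 and 3 in turn gave 3 of 3, 4 of 6 and 3 of 3. The shares of all precursors were then 85.4%, 62.8% and 72%. Without the library term and with DESeq2 the arm test called 5 of 7, beside 78.6% and 79.7% of all precursors. MiR-409-3p, near the threshold, had an adjusted chi-square p of 0.0517 with a minimum of 15. There is 1 group, so no groups share replicate numbers. Depth limits all members but miR-127-3p and miR-369-3p, which alone had at least 10 counts in every library.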
